A study of Sus scrofa with 2 samples.

Results

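The genes described here encode aldehyde dehydrogenases other than the ALDH1A enzymes, which make retinoic acid. They were chosen by name, with values of these data already known, as enzymes that clear reactive aldehydes or act in amino acid and amine metabolism. The list had 10 symbols, and 9 of them (ALDH3A1, ALDH3A2, ALDH2, ALDH1B1, ALDH4A1, ALDH5A1, ALDH6A1, ALDH7A1 and ALDH18A1) were paired with a gene ID among the 25322 IDs of the expression table, each with 1 ID. ALDH9A1, which acts in carnitine synthesis, had no ID paired with its symbol and was not analysed here. All 9 had a mean of at least 1 FPKM (sequenced fragments per kilobase of a transcript, corrected for how many fragments of the library were mapped), the limit on low values used below. The measured values of these 2 samples were part of how the list came about, so the differences below are descriptions.

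RNA was sequenced from the hippocampus, the part of the forebrain that lays down new memories, in Rongchang pigs at the piglet stage, with genotype entered as wild type ("wide type" in the labels). The iron dextran group was 1 sample labelled with the agent iron dextran. In this agent iron is held by a sugar polymer, and it is commonly injected to prevent anaemia. The control group was 1 sample. Dose, age, and whether the pair of names listed for each sample stands for animals, libraries or runs are details not given in the sources consulted. With 1 sample per group there was no spread between replicates and no test, and none of the differences has a replicate check. The table gave an FPKM sum of 850165 in the iron dextran sample and 924070 in the control sample. Absolute depth is unknown. RPS21 and COX10, genes of every cell, were also at 0 in each column, so a value of exactly 0 may be an estimate that failed. Neuronal and glial transcripts were present in both, with SNAP25, a synaptic fusion protein, at 952 FPKM in iron dextran and 1032 in control, and GFAP, the astrocyte filament protein, at 1145 and 1275 FPKM in the same order. In bulk tissue, fewer cells of a type and less RNA per cell cannot be told apart.

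Most aldehyde dehydrogenases oxidise aldehydes to carboxylic acids with NAD or NADP. Iron catalyses the breakdown of peroxidised membrane lipids, which releases reactive hydroxyalkenals and other aldehydes that bind to proteins and DNA. In brain, members of the family also take part in the turnover of the transmitter GABA, of proline, lysine and valine, and of the aldehydes left by monoamine oxidase.

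ALDH3A1 was the 1 member that stood apart between the samples. It was 3.14-fold higher in iron dextran than in control, while the other 8 members had ratios of iron dextran to control from 0.807 (ALDH4A1) to 1.195 (ALDH6A1). On the scale of log2(FPKM + 1), which understates the change of low genes, a member counted as higher or lower from 1.5-fold. By this rule 1 of 9 members was higher, 0 were lower and 8 lay within 1.5-fold. Across all 12557 genes with a mean of at least 1 FPKM, 2.47% were higher and 1.47% lower by the same rule (310 and 185 genes; 454 and 132 with the columns scaled to the same total). By a rule of 2-fold, 1 member was higher and 0 lower, beside 0.741% and 0.422% of all genes. The median difference of the 9 members was -0.01, beside -0.0046 for all genes. Since the list was drawn up with these values known, nothing is read from these counts about the family.

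**Figure D1:**
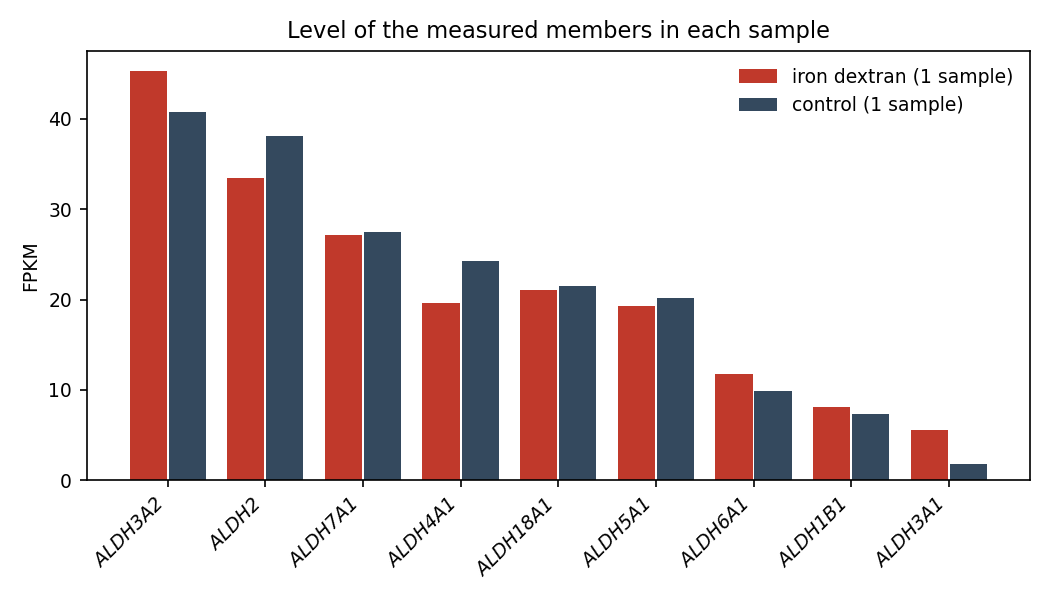
FPKM of each measured aldehyde dehydrogenase in the iron dextran sample (red, left bar) and the control sample (dark blue, right bar), 1 sample each, so there are no error bars. ALDH3A1 is the lowest member in both samples, at 5.59 FPKM in iron dextran and 1.78 in control.

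FPKM is scaled by transcript length, so levels of different members can be set side by side. The order was the same in both samples except for 1 exchange. ALDH3A2 was first, followed by ALDH2 and ALDH7A1, and ALDH5A1, ALDH6A1, ALDH1B1 and ALDH3A1 held places 6 to 9. ALDH18A1 held place 4 and ALDH4A1 place 5 in iron dextran, and the reverse held in control. The 9 levels summed to 191.3 FPKM in iron dextran and 191.04 in control. ALDH3A2 and ALDH2 together made up 41.2% of that sum in iron dextran and 41.3% in control. ALDH3A1 made up 2.92% of it in iron dextran and 0.932% in control, so the member with the largest ratio contributed little to the summed level. Whether neighbours in this order differ beyond animal-to-animal spread cannot be said from 1 sample per group.

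The class 3 enzymes act mainly on lipid-derived aldehydes. ALDH3A1 (ENSSSCG00000018044) is a cytosolic enzyme that oxidises medium-chain and aromatic aldehydes, is known for its abundance in the mammalian cornea, and is a target of the aryl hydrocarbon receptor AHR in rodent and human cells. It had 5.59 FPKM in iron dextran and 1.78 FPKM in control, a difference of 1.24 on the log2(FPKM + 1) scale. Among all 12557 genes, 62 had a larger difference in this direction, 11 of them with a symbol. Its mean level of 3.68 FPKM lies where differences between the samples were widest. Of 4163 genes with a mean from 1 to 5 FPKM, 4.73% were at least 1.5-fold higher and 1.42% at least 2-fold higher with iron dextran, against 0.623% and 0.274% of 4014 genes at 20 FPKM or above. In the lower range, 41 genes had a larger difference than ALDH3A1.

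ALDH3A2 (ENSSSCG00000018041) is the fatty aldehyde dehydrogenase of the endoplasmic reticulum, which oxidises long-chain aldehydes from sphingolipid and ether lipid breakdown and is lost in Sjögren-Larsson syndrome in humans. It was the most abundant member, with 45.3 FPKM in iron dextran and 40.7 in control, a ratio of 1.11. The level of ALDH3A2 was 8.10 times that of ALDH3A1 in iron dextran and 22.9 times in control. In the pig RefSeq gene order (Sscrofa11.1, used here for gene neighbours alone) both genes lie on chromosome 12. Between them lies 1 protein-coding gene whose symbol was not among those of the measured genes. ULK2, a kinase of autophagy and the measured gene on the other side of ALDH3A1, had 79.4 FPKM in iron dextran and 95.6 in control, a log2 difference of -0.27. ALDH3A1 was thus higher in iron dextran while both of its measured neighbours lay within 1.5-fold.

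**Figure D2:**
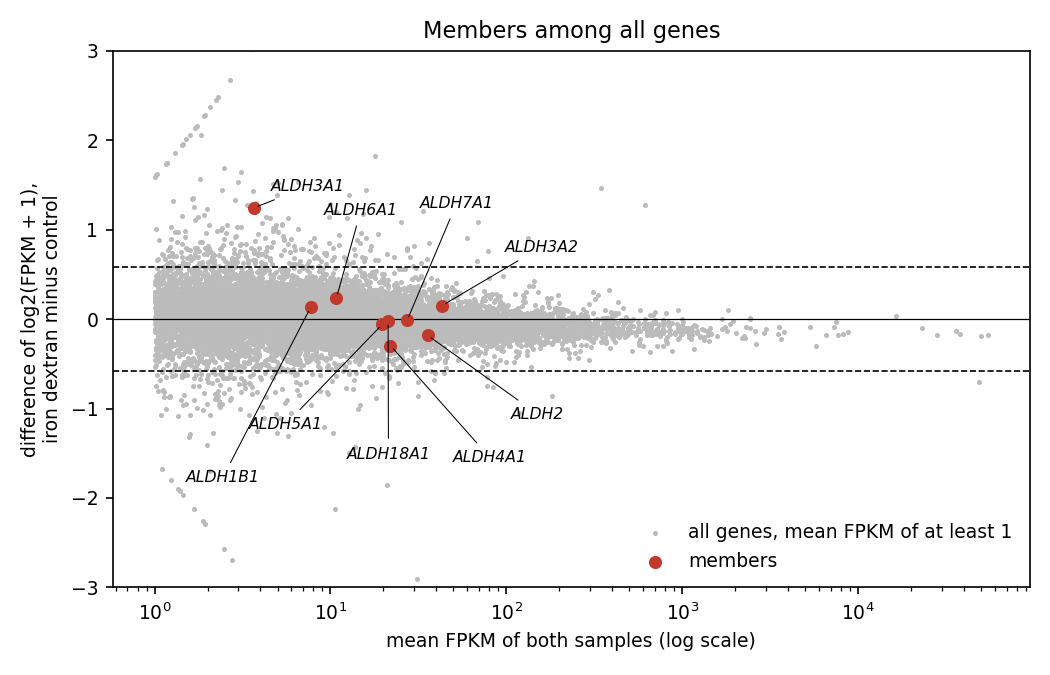
Iron dextran minus control, as the difference of log2(FPKM + 1), against the mean FPKM of both samples (log axis) for all genes with a mean of at least 1 FPKM (grey) and the 9 measured members (red); dashed lines mark 1.5-fold, and 33 genes beyond a difference of 3 either way are not drawn. ALDH3A1, at 1.24, is the 1 member outside the dashed lines.

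The mitochondrial enzymes of small aldehydes differed between the samples by little, and in opposite directions. ALDH2 (ENSSSCG00000009889), which oxidises acetaldehyde and also hydroxyalkenals, had 33.5 FPKM in iron dextran and 38.1 in control, a log2 difference of -0.18. ALDH1B1 (ENSSSCG00000005361), a close relative of ALDH2 in the same compartment, had 8.10 FPKM in iron dextran and 7.32 in control, a log2 difference of 0.13. ALDH2 was thus 4.13 times as abundant as ALDH1B1 in iron dextran and 5.21 times in control. Neither passed 1.5-fold.

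ALDH4A1 and ALDH18A1 act in opposite directions on the proline pathway. ALDH4A1 (ENSSSCG00000024752), a mitochondrial enzyme, turns pyrroline carboxylate from proline or ornithine into glutamate. It had 19.6 FPKM in iron dextran and 24.3 in control, a ratio of 0.807 and the lowest among the 9 members. ALDH18A1 (ENSSSCG00000010495), the synthase that makes pyrroline carboxylate from glutamate, had 21.1 FPKM in iron dextran and 21.4 in control. The level of ALDH18A1 was 1.08 times that of ALDH4A1 in iron dextran and 0.884 times in control, which is the exchange of places noted above. Of 11 other proline and ornithine genes listed, 3 had no ID and 7 were measured, 2 above 0 and 5 below, with none past 1.5-fold. Their median difference was -0.12, or -0.0097 with the columns scaled to the same total. ARG2, the mitochondrial arginase that makes ornithine, had 36.0 FPKM in iron dextran and 45.1 in control.

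ALDH5A1 (ENSSSCG00000001090) is succinic semialdehyde dehydrogenase, the last step of the GABA shunt, and its loss in humans causes a disorder with raised gamma-hydroxybutyrate. It had 19.3 FPKM in iron dextran and 20.1 in control, a log2 difference of -0.06. ABAT, the transaminase that supplies its substrate, had 31.9 FPKM in iron dextran and 27.0 in control, and GAD1, which makes GABA, had 99.2 and 86.1 FPKM in the same order. SUCLG1, a subunit of the ligase that acts on succinyl-CoA, had 182 FPKM in iron dextran and 230 in control, a log2 difference of -0.33. Of 10 genes on the GABA shunt and transport list, 2 had no ID. The 8 measured all lay within 1.5-fold, 5 above 0 and 3 below, with a median of 0.08.

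ALDH6A1 and ALDH7A1 belong to amino acid breakdown. ALDH6A1 (ENSSSCG00000002357), the mitochondrial methylmalonate semialdehyde dehydrogenase of valine and thymine breakdown, had 11.8 FPKM in iron dextran and 9.85 in control. Its log2 difference of 0.24 was the second highest among the members, and it lay within 1.5-fold. Of 23 genes of branched-chain amino acid and pyrimidine breakdown listed, 2 had no ID and 18 were measured. Of these 18, 11 were above 0 and 7 below, with a median of 0.04. In this list 1 gene was at least 1.5-fold higher: BCAT1, the cytosolic transaminase of the first step, had 2.74 FPKM in iron dextran and 1.39 in control. MCCC2, a subunit of the leucine pathway carboxylase, had 8.22 FPKM in iron dextran and 6.19 in control, and DBT, the core of the branched-chain ketoacid dehydrogenase, had 10.5 and 8.38 FPKM in the same order. HIBCH and HIBADH, the valine steps just before ALDH6A1, had 21.3 and 34.7 FPKM in iron dextran and 21.2 and 35.5 FPKM in control, and are named in addition to the rule because of that place in the pathway.

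ALDH7A1 (ENSSSCG00000014247), or antiquitin, oxidises aminoadipic semialdehyde in lysine breakdown, and its loss in humans causes pyridoxine-dependent epilepsy. It had 27.2 FPKM in iron dextran and 27.4 in control, the smallest difference among the members. Of 10 genes of lysine breakdown listed, 3 had no ID and 5 were measured. The 5 had a median difference of -0.03, which turned above 0 with the columns scaled to the same total (0.05) and at a mean of at least 5 FPKM (0.02). CRYM, a ketimine reductase that also binds thyroid hormone, had 442 FPKM in iron dextran and 423 in control.

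For the pathway of the member without an ID, ALDH9A1, 11 carnitine and choline genes were listed, 2 of them without an ID. Of these, 6 were measured, 3 above 0 and 3 below, with none past 1.5-fold. The median of -0.02 turned to 0.10 with the columns scaled to the same total. BBOX1, which makes carnitine in the step after ALDH9A1, had 7.20 FPKM in iron dextran and 6.04 in control. CHDH, which oxidises choline to betaine aldehyde, had 2.30 FPKM in iron dextran and 1.63 in control.

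**Figure D3:**
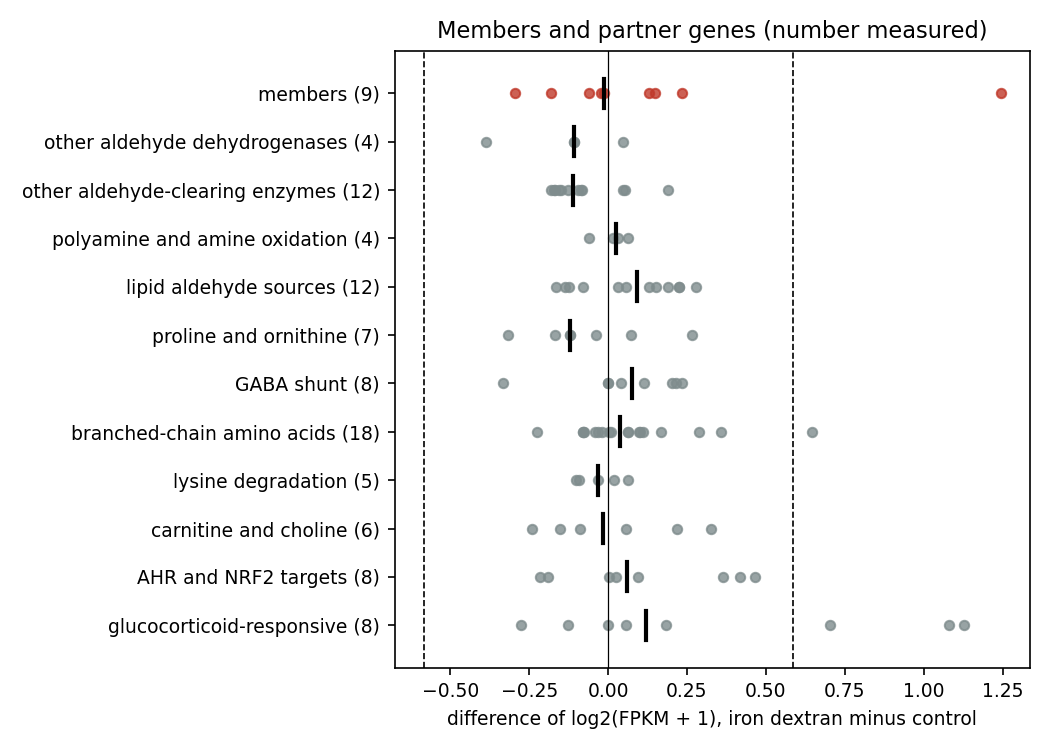
Iron dextran minus control on the log2(FPKM + 1) scale for the members (red) and 11 lists of other family members and partner genes (grey); each point is 1 gene with a mean of at least 1 FPKM, the black bar is the median and dashed lines mark 1.5-fold. Past the dashed lines lie ALDH3A1 at 1.24, BCAT1 at 0.65 and 3 glucocorticoid-responsive genes.

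Of 9 other aldehyde dehydrogenases listed, 4 were measured and none passed 1.5-fold. ALDH1A1, a cytosolic enzyme that makes retinoic acid, had 4.44 FPKM in iron dextran and 6.11 in control, a log2 difference of -0.39. ALDH1L1, a folate enzyme that marks astrocytes, had 10.8 FPKM in iron dextran and 11.8 in control, and its mitochondrial relative ALDH1L2 had 8.45 and 8.16 FPKM in the same order. ALDH16A1 had 8.83 FPKM in iron dextran and 9.59 in control. The median of these 4 was -0.11, and 0.0013 with the columns scaled to the same total. Below 1 FPKM lay ALDH1A2, with 0.571 FPKM in iron dextran and 0.920 in control, ALDH1A3, with 0.276 and 0.119, and ALDH3B2, with 0.428 and 0.668. ALDH8A1 was at 0 in both samples, and ALDH3B1 had no ID paired with its symbol.

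The measured enzymes that clear aldehydes by other routes lay close together. Of 26 listed, 12 had no ID and could not be seen, and 12 of the 14 with an ID were measured. Of those measured, 9 were below 0, 3 above and none past 1.5-fold. Their median was -0.11, and it became 0.0063 with the columns scaled to the same total. ESD, an esterase of the formaldehyde pathway, had 93.9 FPKM in iron dextran and 107 in control. GSTM3, a glutathione transferase, had 49.3 FPKM in iron dextran and 55.6 in control, and the carbonyl reductase CBR4 had 17.9 and 20.2 FPKM in the same order. GSTA4, the glutathione transferase with a preference for hydroxyalkenals, had 364 FPKM in iron dextran and 385 in control and is named in addition to the rule because of that substrate. PTGR2, a reductase of prostaglandin metabolites, was the highest of the list, with 16.8 FPKM in iron dextran and 14.6 in control.

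Genes listed for the formation or supply of aldehydes also stayed within 1.5-fold, though not all of their products form or release an aldehyde. Of 17 genes on the lipid aldehyde list, 4 had no ID and 12 were measured. Of these 12, 8 were above 0 and 4 below, with a median of 0.09. ACSL4, which loads arachidonic acid into membrane lipids that peroxidise, had 33.8 FPKM in iron dextran and 28.8 in control. ALOX5, a lipoxygenase of leukocytes and microglia, had 2.26 FPKM in iron dextran and 1.69 in control, and FAR2, a reductase that makes fatty alcohols, had 12.1 and 10.22 FPKM in the same order. Of 10 genes of polyamine and amine oxidation listed, 3 had no ID and could not be seen, and the 4 measured had a median of 0.02. Among those measured MAOB, a monoamine oxidase of the outer mitochondrial membrane, had 52.2 FPKM in iron dextran and 51.0 in control. MAOA, the other monoamine oxidase, had no ID and is named in addition to the rule.

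Since ALDH3A1 is an AHR target in other species, genes of the AHR response and of the related antioxidant response of NRF2 were listed together. Of 18 symbols listed, 5 had no ID (AHRR, CYP1B1, UGT1A6, HMOX1 and GCLM), 5 lay below a mean of 1 FPKM and 8 were measured. Of these 8, 6 were above 0, 2 below and none past 1.5-fold on the log2(FPKM + 1) scale, with a median of 0.06. AHR itself lay below the filter, with 1.08 FPKM in iron dextran and 0.711 in control, a ratio of 1.52. AHR and the 5 genes without an ID are named in addition to the rule. TIPARP, a feedback target of AHR, had 2.82 FPKM in iron dextran and 1.97 in control, and ARNT, the partner of AHR, had 4.597 and 3.19 FPKM in the same order. NQO1, a quinone reductase controlled by both factors, had 16.2 FPKM in iron dextran and 18.6 in control. SLC7A11, the cystine transporter controlled by NRF2, had 1.35 FPKM in iron dextran and 0.702 in control, a ratio of 1.92. CYP1A1 and CYP1A2, classical AHR targets, were near 0, at 0.0453 and 0.0811 FPKM in iron dextran and 0.0240 and 0.0286 FPKM in control. NQO1 and the CYP1A genes were chosen after their values were seen.

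Some cell type and hormone-responsive genes differed between the samples in the same direction as ALDH3A1. Of 13 glucocorticoid-responsive genes listed, 9 had an ID and 8 were measured. FKBP5, PDK4 and ZBTB16 exceeded control by 1.5-fold or more (3 genes), 5 were above 0, 3 were below and the median was 0.12. NFKBIA went the other way, with 24.1 FPKM in iron dextran and 29.4 in control, a log2 difference of -0.28. Of 12 microglia and macrophage markers listed, 8 had an ID, and all 8 were measured and above 0, with a median of 0.37. On the log2(FPKM + 1) scale 1 was past 1.5-fold (P2RY12). The 8 summed to 127 FPKM in iron dextran and 99.3 in control. Of 12 erythroid and blood markers, 7 had an ID, and the 6 measured were also all above 0, with a median of 0.58. On the same scale 3 were past 1.5-fold (HBB, HBM and ALAS2). The 7 with an ID summed to 525 FPKM in iron dextran and 194 in control. HBB made up most of that sum, and without it the other 6 with an ID summed to 18.6 FPKM in iron dextran and 10.9 in control, a ratio of 1.71. Their part in the ALDH3A1 difference was not tested.

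Epithelium, where ALDH3A1 is abundant in other organs, was covered by 12 markers, of which 8 had an ID and 3 were measured. The 8 summed to 9.84 FPKM in iron dextran and 11.06 in control, most of it from PAX6, a transcription factor that neural cells also express, with 7.23 FPKM in iron dextran and 7.55 in control. Without PAX6 the other 7 summed to 2.61 FPKM in iron dextran and 3.51 in control. KRT8, a keratin of simple epithelia, was at least 1.5-fold lower, with 0.553 FPKM in iron dextran and 1.68 in control, and EPCAM, an epithelial adhesion protein, had 1.66 and 1.26 FPKM in the same order. KRT12, the keratin that defines corneal epithelium, was listed at 0 in both samples, KRT3 had 0.135 FPKM in iron dextran and 0.0723 in control, and TP63 had 0.0575 and 0.0611. KRT12, KRT3 and TP63 were picked with their values known. Markers of the other brain cells had medians of 0.08 (8 astrocyte genes), -0.03 (8 neuronal genes), -0.21 (7 oligodendrocyte genes), -0.07 (6 endothelial and pericyte genes), -0.32 (7 meningeal and fibroblast genes) and 0.0089 (4 choroid plexus and ependymal genes), with none past 1.5-fold. With the columns scaled to the same total, the neuronal (0.09), endothelial (0.04) and epithelial (0.05, and -0.05 as deposited) medians turned above 0, and the oligodendrocyte and meningeal medians were -0.0851 and -0.21. At a mean of at least 5 FPKM the meningeal median was -0.16 and the choroid plexus and ependymal median -0.17. Without a filter the meningeal median was -0.16, the endothelial median 0.03 and the choroid plexus and ependymal median 0.15.

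The choice of scale left the call of ALDH3A1 as it was. Its log2 difference ran from 1.24 with a trimmed mean of M values to 1.65 with a pseudocount of 0.01, and it stayed past 1.5-fold in each of the 5 alternatives of pseudocount and scaling. That outcome was fixed in advance, since a smaller pseudocount widens the difference and the scalings move log2 values by about 0.12 at most. With the columns scaled to the same total, which adds 0.12 on the log2 scale to genes well above 1 FPKM, ALDH5A1, ALDH7A1 and ALDH18A1 turned above 0, and ALDH2 and ALDH4A1 stayed below it.

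**Figure D4:**
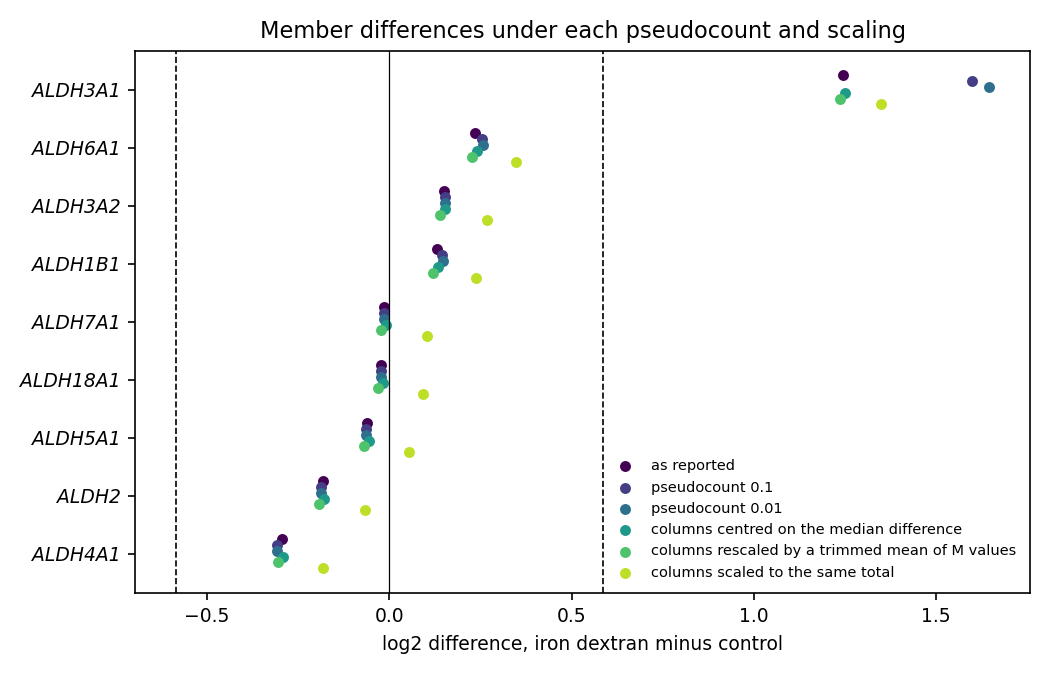
Log2 difference of each member, iron dextran minus control, as reported (darkest points) and under 5 other choices of pseudocount or scaling; dashed lines mark 1.5-fold. ALDH3A1 lies between 1.24 and 1.65, and no other member reaches a dashed line.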

How the data were processed

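Hippocampal RNA of 1 iron dextran and 1 control sample was sequenced by the authors on an Illumina instrument. The deposited values are FPKM per Ensembl pig gene ID, with 1 column per sample, assigned by the letter shared with the sample title. The submitters' processing notes name cutadapt 1.2.1 (adapter trimming), TopHat (spliced alignment) and the builds Sscrofa10.2 and susScr3; the FPKM program, annotation and use of strand were not stated in the sources consulted. FPKM depends on the gene models and on abundant genes that shift the column total. Symbols came from a table of gene IDs, which matched 11804 of 25322 IDs. Sequences were not used here, and coordinates served only to order genes for the neighbours of the members.

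Iron dextran minus control on the log2(FPKM + 1) scale was taken for genes with a mean of at least 1 FPKM. The work used Python 3.11.15, numpy 2.4.6 and pandas 2.3.3. Calls from 1.5-fold are a rule of size. A run on simulated data checked the code alone, with planted changes of 4-fold, counted as found among genes at 4 FPKM or more in control. It does not cover changes near 1.5-fold, the spread of real samples or genes as low as ALDH3A1. Of 448 genes above 0 and under 0.1 FPKM in both samples, 68.5% had ratios within 0.05 log2 units of 0.5, 1 or 2 times a common value taken from the same ratios; read as whole fragments, the depth of iron dextran was 1.07 times that of control. The absolute depth is unknown and counting intervals are therefore not given.

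The members and the 20 other gene lists were chosen with earlier results of these data known. Named genes are all members, the other aldehyde dehydrogenases and, per list, genes past 1.5-fold and up to 4 with the largest absolute difference, given here in part; genes named outside the rule are marked, apart from FPKM landmarks (GFAP, RPS21, COX10) and gene neighbours, which were chosen after their values were seen. Alternatives were pseudocounts of 0.1 and 0.01, median centring, a trimmed mean of M values (30% of M and 5% of A values trimmed per side), the same column total, no filter, a mean of at least 5 FPKM and 2-fold.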

Additional observations from a re-analysis of the deposited data

How the results depend on the processing

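With 1 sample per group, no replicate could be left out and the spread between animals is unknown. No paired analysis was possible because each group had 1 sample. No member had several gene IDs, so summing IDs gave no value. The count of members higher was 1, and 0 at a mean of at least 5 FPKM, a limit that removes ALDH3A1 by its level; the count lower was 0 under every alternative. With the same column total, ALDH5A1 (0.0543), ALDH7A1 (0.102), ALDH18A1 (0.0926) and the median of the members (0.102) turned above 0. Over all genes, the counts higher and lower were 558 and 332 with a pseudocount of 0.1, 599 and 357 with 0.01, 113 and 71 at a mean of at least 5 FPKM, and 93 and 53 at 2-fold, against 310 and 185 as reported; without a filter they were 434 and 282. Of the 20 list medians beside the members, 7 changed sign with the same total, 1 without a filter (and 2 went to 0) and 2 at a mean of at least 5 FPKM; none did with either other pseudocount or with the other scalings.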

Other observations

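The measured genes nearest to the members in the Sscrofa11.1 gene order were examined after the member values had been seen. For each member the nearest protein-coding gene on either side that was measured was taken, which gave 16 genes besides the members themselves. Genes whose symbol was not among those of the measured genes were passed over, 12 of them between ALDH3A2 and PRPSAP2. Not all of the 16 are therefore direct neighbours, and the genes passed over were not examined. None was past 1.5-fold, and their log2 differences ran from -0.27 (ULK2, beside ALDH3A1) to 0.43 (IGFBPL1, beside ALDH1B1). IGFBPL1, a secreted protein related to the binding proteins of insulin-like growth factors, had 7.75 FPKM in iron dextran and 5.50 in control. SHB, an adaptor protein on the other side of ALDH1B1, had 6.003 FPKM in iron dextran and 6.85 in control. IGSF21, a synaptic adhesion protein and the nearest measured gene on 1 side of ALDH4A1, had 108 FPKM in iron dextran and 129 in control.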
